A study of Homo sapiens with 9 samples.

Results

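The regions described here are the KAS peaks of an 8q24 interval on chromosome 8, from 124998000 to 128102000 on GRCh38, which runs from the gene SQLE through MYC to the end of PVT1. Members were chosen by position alone, though with earlier results of these data known: a KAS peak belonged when its summit lay inside the interval. There were 237 such peaks among 1480 on chromosome 8 and 34247 in the whole KAS list. The other 1243 peaks of chromosome 8 served for comparison.

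The cells were HL-60, a human promyelocytic leukaemia line, named dHL60 in the labels, the usual short form for differentiated cells. They were induced to release NETs, the chromatin fibres that neutrophils cast out. The KAS library (1 sample) came from NET DNA after 4 h of induction and 10 min with 5 mM N3-kethoxal, and its label names no thrombin and no inducer dose. The 4 thrombin pulldown libraries came from cells given 500 nM phorbol myristate acetate (PMA) for 4 h and then 1 µM biotinylated thrombin for 1 h. The 4 input libraries were not analysed here. All groups share the HL-60 line and 4 h of induction, for which the KAS label refers back to the other protocols. The labels do not say whether the pulldown replicates were separate cultures. With 1 KAS library there was no spread between replicates and no test between groups, so KAS values are given as counts, medians and ranges, and their intervals cover counting error only. The lists give no library totals, so depth is unknown.

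KAS-seq uses N3-kethoxal, which reacts with guanines that are not base-paired, so that single-stranded DNA such as transcription bubbles can be tagged with biotin, captured and sequenced. MYC encodes a transcription factor that drives growth and proliferation, and HL-60 is widely known for carrying extra copies of the 8q24 segment around it. A captured library reads both the number of copies of a DNA segment and how much of each copy is single-stranded. These cannot be told apart in the peak lists used here.

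KAS peaks were crowded in the 8q24 interval, and most of them lay in short stretches of it. The interval held 7.64 peaks per 100 kb (exact Poisson 95% interval 6.69 to 8.67), against 0.876 per 100 kb (0.828 to 0.926) in the rest of chromosome 8, a ratio of 8.72 (7.56 to 10.0). In steps of 100 kb, 17 of 31 steps in the interval (54.8%) held at least 3 peaks, which is at least 3 times the outside mean of 0.875. Outside the interval 9.86% of 1420 steps on chromosome 8 did so.

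The step at 125.4 Mb, which holds TRIB1 and part of the stretch before it, was the fullest with 44 peaks. The steps at 125.3 and 125.2 Mb, both within or next to NSMCE2, held 38 and 27. The step at 127.7 Mb, which holds MYC and the non-coding gene CASC11, held 26. A further 12 peaks lay in the step at 126.3 Mb, where there is no protein-coding gene. These 5 steps each exceeded the fullest step elsewhere on chromosome 8, which held 11. By contrast 7 steps of the interval were empty, namely 125.0 Mb with WASHC5 and most of SQLE, 126.7 to 126.9 Mb, 127.4 Mb with POU5F1B, 127.5 Mb and 127.9 Mb inside PVT1. Among all 30883 steps of the genome, 11 outside the interval held 44 or more of the peaks analysed here, and the highest held 77. The longest unbroken run of steps with at least 3 peaks ran over 12 steps, from the summit at 125213660 in NSMCE2 to that at 126399994, and held 171 peaks.

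**Figure D1:**
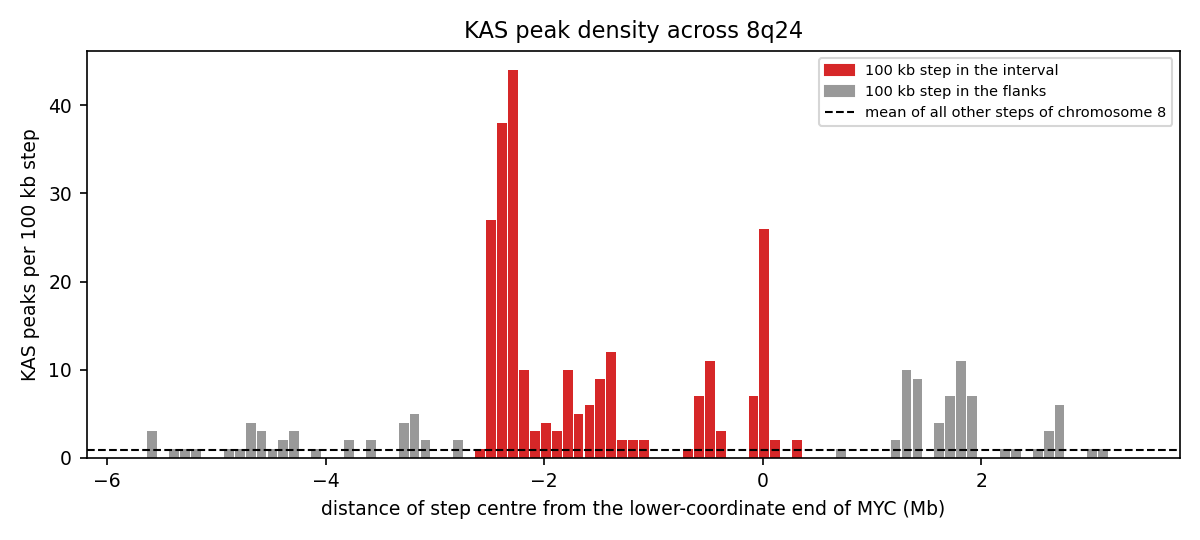
KAS peaks per 100 kb step (y axis) against the distance of the step's centre from the lower-coordinate end of MYC in Mb (x axis), for the interval (red) and 3 Mb on either side (grey); the dashed line is the mean of all steps of chromosome 8 outside the interval, 0.875. The tallest bars, of 44, 38 and 27 peaks, stand over NSMCE2 and TRIB1, and the next, of 26, stands over MYC.

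The crowding was one of peaks with moderate fold. The fold enrichment is the authors' own value for each peak, the pileup of reads at the summit over the caller's background. Of the 237 peaks, 22 (9.28%) reached the median fold of the whole KAS list, 5.43, against 51.1% of the peaks in the rest of chromosome 8. Counted over such peaks alone, the density ratio was 1.58 (exact 95% interval 0.986 to 2.42), with 22 peaks in the interval and 635 outside. This count is bound to the background described next: at the median background of the blocks a peak needs a pileup of 41 to reach that fold, and at the median of the rest of chromosome 8 it needs 10.

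The deposited pileup and fold give the background that the caller used at each summit, since MACS2 writes the fold as (pileup + 1) over (background + 1). A Poisson tail at this implied background returned the deposited −log10 p of all 34247 KAS peaks to within 0.000465. No label or file header says whether that background came from input DNA or from KAS reads around the peak. Within the interval the implied background fell into 2 classes with nothing between: 19 peaks had values from 0.780 to 1.86 reads, and 218 had values from 3.78 to 11.2. A background of at least 3 reads was found at 218 of 237 peaks (92.0%), against 6.68% of the peaks in the rest of chromosome 8. The threshold of 3 was set after these values were seen. Over the interval and 3 Mb on either side, the peak nearest below it had 2.33 and the nearest above it 3.78, followed by 5.24.

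Peaks of high background followed each other in 4 unbroken runs, called blocks A to D here, which took up 42.9% of the interval. Low-background peaks filled the stretches between them, so each edge lies between a pair of neighbouring peaks. Neighbouring peaks may share DNA from which the background was read, so values along a block were not treated as independent. How much they share was not tested.

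Block A, over the later part of NSMCE2, TRIB1 and most of the non-coding gene TRIB1AL, ran from 125213660 to 125523267, 310 kb with 117 peaks. Its left edge lies in the 113 kb after the low peak at 125100772, inside NSMCE2, and its right edge in the 26.8 kb before the low peak at 125550050. Block B, a stretch with LINC00861 and no protein-coding gene, ran from 125699386 to 126371758, 672 kb with 49 peaks. Low peaks at 125645638 and 126399994 bound it, 53.7 and 28.2 kb away.

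Block C, over the cancer-associated non-coding genes PRNCR1, CASC19, CCAT1 and the first part of CASC21, ran from 127061893 to 127329714, 268 kb with 21 peaks. Its left edge is the least certain, since no peak was called in the 378 kb before it, while the low peak at 127384413 lies 54.7 kb beyond its right end. Block D, over CASC11 and MYC, ran from 127677062 to 127757704, 80.6 kb with 31 peaks. Its edges lie within 32.4 kb on the left and 23.2 kb on the right, where the low peak at 127780860 stands between MYC and PVT1.

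**Figure D2:**
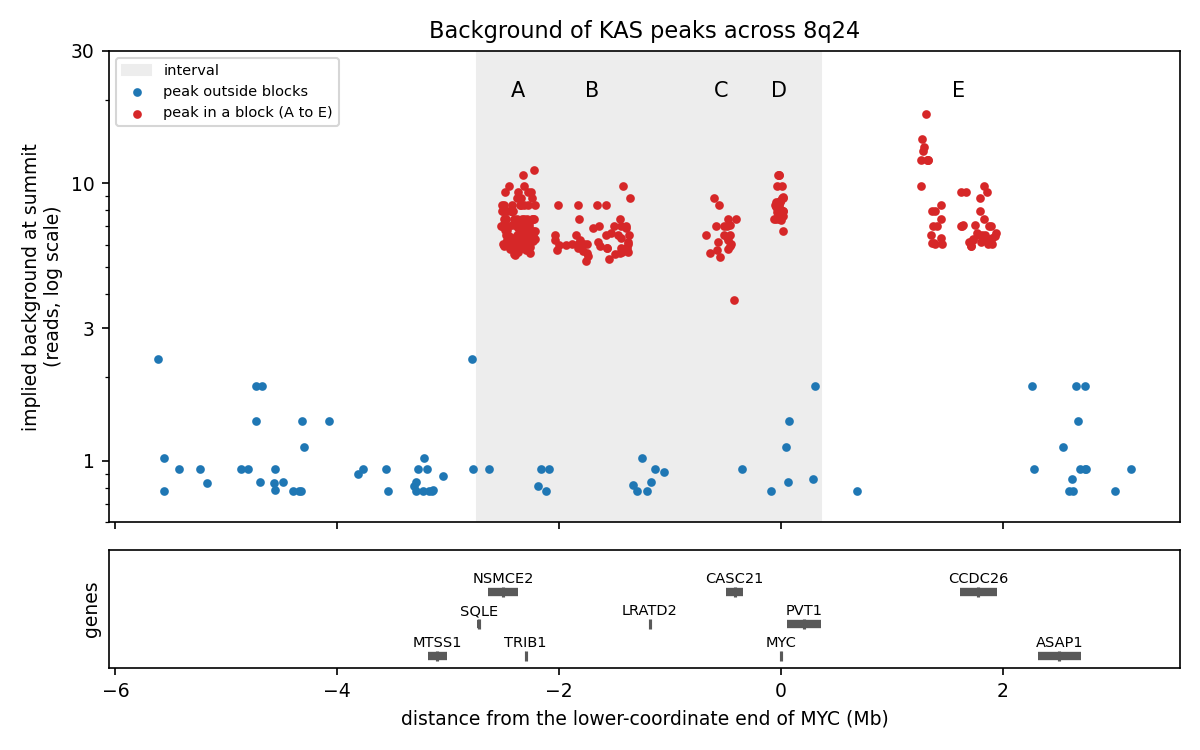
Implied background at the summit in reads (y axis, log scale) of every KAS peak of the interval (shaded) and 3 Mb on either side, against distance from the lower-coordinate end of MYC in Mb (x axis), with selected genes drawn below. Peaks in blocks A to E (red) have backgrounds of 3.78 reads or more, and all others (blue) 2.33 or less.

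The blocks differed more in peak density than in median background. The median background was 6.70 reads in block A, 6.15 in block B, 6.52 in block C and 8.38 in block D. These are 7.20, 6.60, 7.0 and 9.0 times the median of 0.931 in the rest of chromosome 8 without block E, a further block beyond the interval. That median lies near the lowest background of the KAS list, 0.780 reads. Of the 1243 peaks in the rest of chromosome 8, 308 had that lowest value, so the ratios are set against values close to a minimum. Block D stood highest: its lower quartile, 7.68, was above the upper quartile of blocks A (7.45), B (6.89) and C (6.98).

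Peak density was 37.8 per 100 kb in block A (exact Poisson 95% interval 31.3 to 45.3) and 38.4 in block D (26.1 to 54.6). In blocks B and C it was 7.29 (5.39 to 9.63) and 7.84 (4.85 to 11.99). Blocks A and D together held 5.09 times as many peaks per 100 kb as B and C together (exact 95% interval 3.81 to 6.87, counting error only). These pairs were formed after the densities were seen, so that interval describes the contrast and does not test it. Peaks covered 12.7% of block A and 13.7% of block D, against 2.15% of block B and 2.502% of block C. Without blocks A and D the interval's density was 3.75 times that of the rest of chromosome 8.

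Between the blocks the interval held 19 peaks in 1.77 Mb, or 1.07 per 100 kb (exact Poisson 95% interval 0.645 to 1.67). This is 1.22 times the rest of chromosome 8, with an interval for the ratio of 0.734 to 1.92 that includes 1. The interval as labelled is thus not evenly dense: 92.0% of its peaks lay in the blocks.

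**Figure D3:**
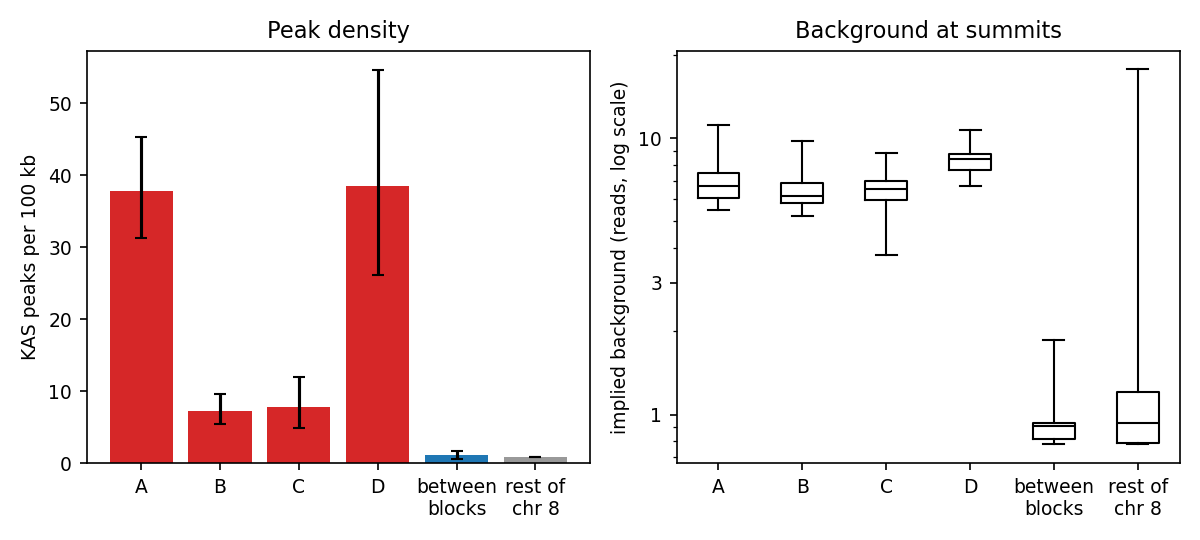
Left, KAS peaks per 100 kb (bars, with exact Poisson 95% intervals) in blocks A to D, in the interval between blocks and in the rest of chromosome 8. Right, implied background at the summits of the same peaks in reads (log scale), as median, quartiles and full range. Blocks A and D have about 38 peaks per 100 kb and blocks B and C under 8, at median backgrounds of 6.15 to 8.38 reads.

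Peaks of the interval were taller, slightly longer and of lower fold than those elsewhere on chromosome 8. The pileup had a median of 31 reads in the interval (quartiles 27 and 35, range 7 to 53) and of 10 in the rest (quartiles 9 and 12, range 6 to 64). All 218 peaks in the blocks had a pileup of at least 20, and the 19 peaks between them ran from 7 to 19, so these classes do not overlap. The caller partly set this separation: blocks are defined by background, and a call at their median background needs at least 18 reads. In the rest of chromosome 8, 9.33% of peaks had a pileup of at least 20.

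Subtracting the background left a median of 24.5 reads in blocks A to D and 8.88 in the rest of chromosome 8 without block E. The excess was 2.64 times the outside median in block A, 2.76 in B, 2.77 in C and 3.08 in D, a smaller ratio than that of the backgrounds in each block. The background ratios are set against an outside median near the list's minimum. The comparison of the excess covers called peaks only and is bound to the height needed for a call. That height is 18 reads at a background of 6.70 and 6 reads at 0.931. The part of this in the ratios was not tested.

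The fold ran the other way, with a median of 4.16 in the interval (quartiles 3.62 and 4.71) and 5.43 in the rest (quartiles 4.66 and 6.18). The height needed for a call differed with the background. At the median background of the blocks, 6.70 reads, the lowest pileup that reaches the smallest −log10 p of the list, 4.12, is 18, a fold of 2.47. At 0.931 reads it is 6, a fold of 3.62. The lowest fold in the blocks was 2.35, in block A.

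Peak length had a median of 279 bases in the interval (exact 95% interval of the median 270 to 292) and 245 in the rest of chromosome 8 (237 to 250). Peaks of 500 bases or more made up 11.8% of the interval and 5.39% of the rest. The shortest length in the list, 200 bases, was found in 4.22% of the interval's peaks and 23.7% of the others. Within the interval, the 19 peaks between the blocks had a median of 207 bases and the 218 in blocks 282.5. Outside the interval and block E, the 66 chromosome 8 peaks with a pileup of at least 20 had a median length of 328.5 bases. Their median fold was 7.33, against 4.10 in blocks A to D. These 66 are a mixed set: 15 lay from 43 to 47 Mb, around the centromere, and 31 had a background of at least 3 reads. A single run of high background, from 85654451 to 85826724, held 16 peaks. Among peaks of at least 20 reads, those in the blocks were thus shorter in median than this mixed set, not longer. Tall peaks outside those stretches were not compared separately.

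**Figure D4:**
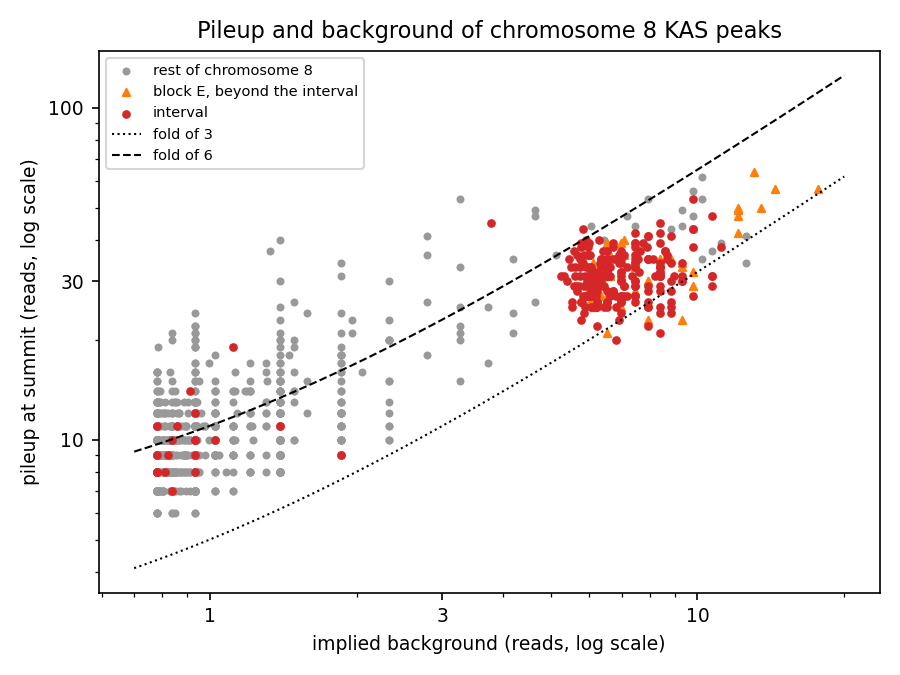
Pileup at the summit (y axis, log scale) against implied background (x axis, log scale), both in reads, for every KAS peak of chromosome 8; lines mark folds of 3 and 6. Peaks of the interval (red) have backgrounds of 3.78 to 11.2 reads and pileups of 20 to 53, apart from 19 that lie with the rest of the chromosome (grey).

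Among the 7 protein-coding genes of the interval, 2 (28.6%) held a KAS summit, NSMCE2 and MYC, and 35% of 708 protein-coding genes elsewhere on chromosome 8 did. NSMCE2, which encodes a SUMO ligase of the SMC5/6 complex that acts in DNA repair, lies at 125091860 to 125367120. It held 52 summits, the most of 20037 protein-coding genes in the genome, counted over the peaks analysed here, whose numbers begin at 1951. The next was PTPRN2 on chromosome 7, with 43 summits over 1049 kb against the 275 kb of NSMCE2. The edge of block A divides the gene: 51 summits lay in the 153 kb inside the block and 1 in the 122 kb before it. The summits inside had a median pileup of 28 and background of 6.98, and the 1 outside, at 125100772, had a pileup of 10 and a background of 0.931.

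TRIB1 encodes a pseudokinase that directs the myeloid transcription factor C/EBP-alpha to degradation. Its span, 125430358 to 125438403, held no summit although it lies within block A. The stretch between NSMCE2 and TRIB1, which holds no gene, was the densest part of the block with 37 peaks in 63.2 kb, or 58.5 per 100 kb (exact Poisson 95% interval 41.2 to 80.6). The tallest peak of the interval, with a pileup of 53, a background of 9.78 and a fold of 5.01, lay there at 125422522 to 125422970, 7.58 kb before TRIB1. In the 10 kb before the gene there were 9 summits and in the 10 kb after it 4, the nearest at 125439141, 0.738 kb beyond its end.

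The free gap over TRIB1, 125428675 to 125439007, measured 10.3 kb and was the second longest of 116 gaps between neighbouring peaks in block A, whose median was 1.48 kb. The span is short, and 0 peaks in 8.05 kb allows up to 45.8 per 100 kb (exact Poisson 95% interval), so a lower density than in the rest of the block was not detectable. TRIB1AL, a non-coding gene after TRIB1, held 16 summits, all in block A, with pileups up to 39.

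MYC lies at 127735434 to 127742951 and held 1 summit, at 127740046, with a pileup of 31, a background of 7.36 and a fold of 3.83. The gap before that peak, 127732381 to 127739924, covers the first part of MYC and was the longest of 30 in block D, at 7.54 kb against a median of 1.73 kb. CASC11, the non-coding gene beside MYC, held 15 summits, or 45.0 per 100 kb (exact Poisson 95% interval 25.2 to 74.2), with pileups from 29 to 47. In the 14.8 kb of block D after MYC there were 9 peaks, or 61 per 100 kb (27.9 to 116). For MYC itself the interval was 0.337 to 74.1 per 100 kb, which includes the values of its neighbours.

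**Figure D5:**
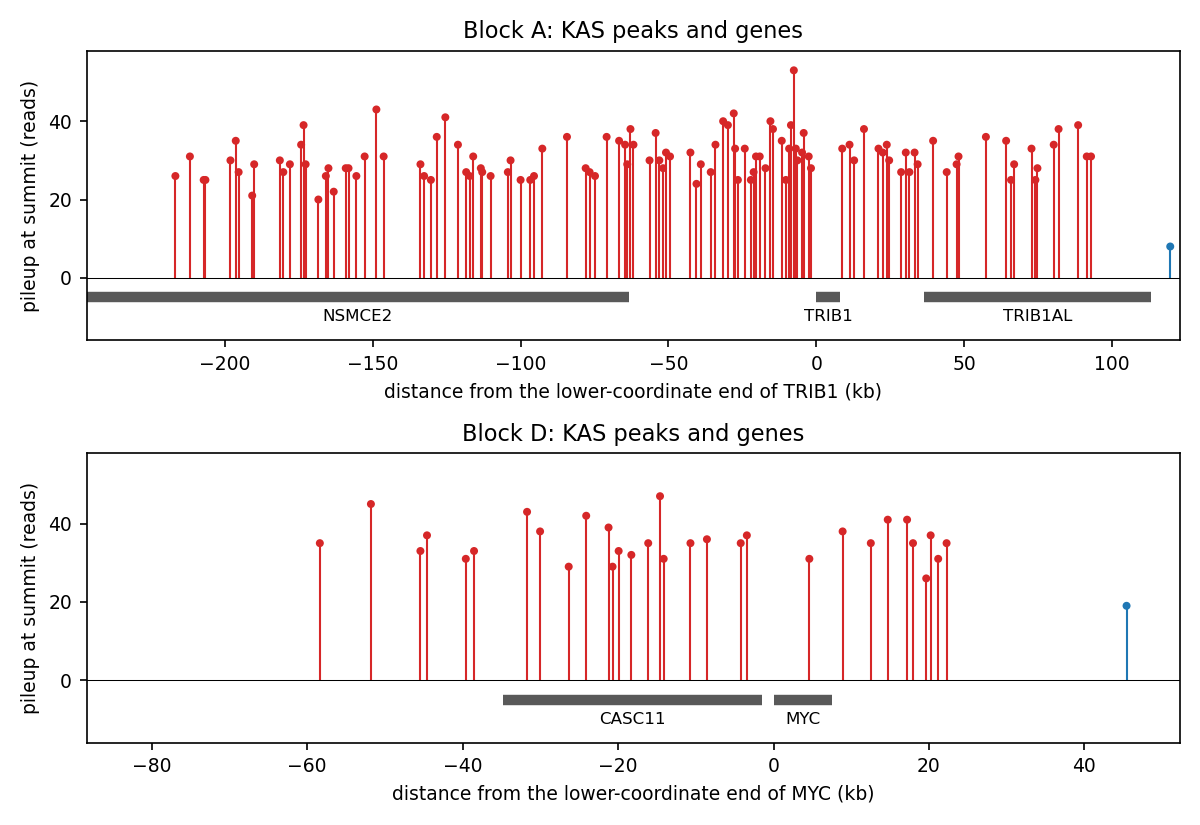
Pileup at the summit in reads (y axis) of each KAS peak in block A (top) and block D (bottom), against distance in kb from the lower-coordinate end of TRIB1 and of MYC, with gene spans as grey bars. Peaks in the block are red and others blue; no summit lies over TRIB1, and 1, with a pileup of 31, lies over MYC.

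The other 4 protein-coding genes, SQLE, WASHC5, LRATD2 and POU5F1B, had no summit and lay outside the blocks. SQLE (124998505 to 125022283), for the sterol synthesis enzyme squalene epoxidase, was 35.2 kb from the nearest summit. WASHC5 (125024260 to 125091792), for the WASH complex subunit strumpellin, was 8.98 kb from one, the low peak in NSMCE2. LRATD2 was 10.2 kb from a summit with a background of 0.838, and POU5F1B, a retrogene copy of the stem cell factor gene POU5F1, was 29.0 kb from a summit with 0.931. Each of these nearest peaks had a pileup of 9 or 10 reads.

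Of the 23 non-coding (lncRNA) genes that overlap the interval, 9 (39.1%) held a summit, and 14.5% of 864 elsewhere on chromosome 8 did. Genes that overlap each other were each given the shared summits. CASC21 held 12 summits, 11 of them in block C with a median pileup of 29 and 1 beyond it with a pileup of 9. CASC8, which overlaps it, held 3, LINC02964 6, and CASC19 and LINC00861 1 each. PCAT1, PRNCR1, CCAT1 and CCAT2 held none. PRNCR1 (12.7 kb) and CCAT1 (11.9 kb) lie wholly in block C, but at its 7.84 peaks per 100 kb genes this short can easily hold none. LOC105375751, the longest of these genes at 463 kb, held 3, with backgrounds of 0.838 to 0.931.

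PVT1, a long non-coding gene at 127794524 to 128101256 that is often amplified together with MYC in tumours, lay wholly beyond the right edge of block D. It held 4 summits in 307 kb, or 1.30 per 100 kb, with backgrounds of 0.838 to 1.86 and pileups of 7 to 11. Its values are those of the rest of the chromosome, while CASC11 on the other side of MYC had 45.0 summits per 100 kb. No summit lay in the miRNA genes MIR1204, MIR1205, MIR1206 and MIR1207 within PVT1.

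Over the whole interval, 22.4% of summits lay in a protein-coding gene (exact 95% interval 17.2 to 28.2), nearly all in NSMCE2, and 54.0% in no gene (47.4 to 60.5). In the rest of chromosome 8 these shares were 43.8% and 42.2%.

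The peak of highest fold stood apart from its block. At 127315480 to 127315830, in CASC21 and CASC8 near the right end of block C, it had a fold of 9.62, a pileup of 45 and a background of 3.78, the lowest of all block peaks. The next by fold was the low-background peak between MYC and PVT1, at 127780761 to 127781006, with a fold of 9.45, a pileup of 19 and a background of 1.12. Of the 8 peaks of highest fold, 2 lay in blocks. The longest peak, 812 bases at 125363362 to 125364173, lay in NSMCE2, and the next, 780 bases, in CASC21. Those of 768 and 741 bases lay in TRIB1AL, and a pair tied at 682 bases lay in NSMCE2 and CASC11.

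The first peak of the interval, at 125100772, lay 103 kb inside its left end, and the last, at 128041460, 60.5 kb inside its right end. The nearest peaks outside, at 124963260 and 128418402, had backgrounds of 0.931 and 0.780, so neither end of the interval cuts through a block. On the left side, MTSS1, for an actin-binding membrane protein, held 4 summits, TATDN1 and FER1L6 2 each and the respiratory complex I gene NDUFB9 1. RNF139, TMEM65, ZNF572 and the tRNA-modifying gene TYW2, also known as TRMT12, held none. All these peaks had backgrounds of 1.02 or less.

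Beyond the right end, a further block, E, ran from 128995204 to 129674341 with 50 peaks, a median background of 6.98 and a density of 7.36 per 100 kb (exact Poisson 95% interval 5.46 to 9.71). It starts 577 kb after the nearest low peak. Its first 9 peaks, up to 129064639, had backgrounds of 9.78 to 17.7 with a median of 12.1, and the 41 after them had a median of 6.61. CCDC26, a non-coding gene linked to myeloid leukaemia, held 29 summits there, with backgrounds of 5.93 to 9.78. Past block E backgrounds were low again: GSDMC held 0 summits, CYRIB 2, ASAP1 7 and ADCY8 1, none with a background above 1.86.

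Thrombin pulldown peaks were rare on all of chromosome 8, in the interval and outside it. The lists of replicates 1 to 4 held 0, 2, 0 and 0 peaks in the interval, a mean of 0.500 ± 1.00 (SD, n = 4), and 3, 5, 2 and 4 on all of chromosome 8, a mean of 3.50 ± 1.29 (SD, n = 4). Over all lists, 2 of 14 chromosome 8 peaks thus lay in the interval, which is 3.10 Mb of 145.1 Mb, both from replicate 2. Without replicate 2 the mean in the interval was 0. Both peaks of replicate 2 lay in block B. The first, at 125794826 to 125795283, had a pileup of 29, an implied background of 9.32 and a fold of 2.91. The second, at 126191093 to 126191450, had a pileup of 27, a background of 8.56 and a fold of 2.93.

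Their folds were close to the median of the replicate's list, 2.83, and their backgrounds were below its median of 21.2. None of the 237 KAS peaks shared a base with a pulldown peak (0%, exact 95% interval 0 to 1.54), and 2.13% of all KAS peaks did, as did 1 of the 1243 in the rest of chromosome 8. The KAS peak nearest to a pulldown peak, with its summit at 126190258 and a pileup of 31, ended 0.716 kb before the second of these. In block E, replicate 2 had another peak at 129014118 to 129014327, with a pileup of 53 and a fold of 2.65, 0.167 kb from a KAS peak of pileup 64.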

How the data were processed

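Peak lists of 1 KAS and 4 pulldown libraries were used. Input libraries, 4 in number, were left out and not analysed here. MACS2 2.2.7.1 is listed in the submitters' processing notes beside BWA, bedtools 2.30.0, Picard 2.27.4 and SAMtools 1.6, with the build GRCh38.p13 and no roles or settings. The authors deposited 1 list per library, in MACS2's table layout, with 1-based positions. The deposited pileup signal at the summit is not normalized between libraries. Each peak's fold (a ratio to background), −log10 p and −log10 q are used as the authors deposited them. KAS peak numbers began at 1951, and any lower-numbered peaks are not analysed here.

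From these, the implied background was computed as (pileup + 1)/fold − 1. High-background blocks are at least 5 consecutive peaks with 3 reads or more. Genes came from RefSeq's GRCh38.p14 table, which shares chromosome coordinates with the peaks' build and gives no strand or exons. Chromosome 8 was taken to end at 145.1 Mb, the last gene or peak end, unknown bases included. Count intervals are exact Poisson, share intervals Clopper-Pearson, and ratio intervals conditional binomial.

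Named were all protein-coding genes of the interval, non-coding genes there with 3 or more summits or on a fixed list, fixed flanking genes, and the peaks of highest fold, length and pileup. Members and lists were chosen with earlier results of these data known. The implied background was planned, and the block rule, block E and the parts of blocks were chosen after seeing values. SciPy 1.17.1, pandas 2.3.3, NumPy 2.4.6 and matplotlib 3.10.9 were run under Python 3.11.15, and the steps were tested on simulated data. Alternatives covered the comparison set, membership, fold, merging of close peaks, step size, overlap rule and each pulldown replicate.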

Additional observations from a re-analysis of the deposited data

Results flagged for a closer look

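In pulldown replicate 2 the count of peaks was farther from the other lists than Dixon's 95% limit allows. This list held 2 peaks in the 8q24 interval, and replicates 1, 3 and 4 held 0. With 3 Mb added on either side it held 3, and the others again 0. Because the other lists were all at 0, a single peak would already have passed. These are 2 of 3 measures checked, the third being the number of peaks on chromosome 8. The 2 flags are not separate, since the 3 peaks include the 2 in the interval. Dixon's chance rate of about 1 in 20 is meant for measured values without ties, and it does not hold for these counts. Replicate 2 had the fewest peaks, 570, and the highest median pileup, 64 reads; the part of these in the result was not tested.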

How the results depend on the processing

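Of 48 alternatives run, 40 left the value within its counting interval, 1 step, 1.5-fold range or, for the pulldown mean, the SD between replicates. The density ratio of 8.72 moved to 6.45 against all other autosomes, 7.52 with peaks closer than 1 kb counted as 1, 1.58 with only folds at or above the list median (a rule that itself asks for taller peaks where the background is high), and 3.75 without blocks A and D (the last chosen after seeing the data). The longest run of dense 100 kb steps, from 125213660 to 126399994, ended at 125645638 with 50 kb steps and at 125735026 with steps shifted by 50 kb. With only folds at or above the list median the longest run lay outside the interval, from 124429194 to 124688358. The cause was not tested. Leaving out each pulldown replicate gave means of 0 (without replicate 2, which held both peaks) to 0.667 in the interval, within that SD of 1.00. With a high background set at 2.5 or 4, or 10 peaks asked for, 4 blocks were found each time, with 216 to 218 peaks; these settings were chosen after seeing the data. No paired analysis was possible because the KAS group has 1 library and the inputs were not analysed here. Depth is unknown, and with 1 KAS library no value has a replicate check.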

Other observations

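Over the whole genome, blocks A to E included, long runs of high-background KAS peaks mostly lay where there is no protein-coding gene. By the block rule, with chromosome M left out, there were 54 runs in the genome, 6 of them on chromosome 8. Of the 21 runs spanning at least 50 kb, 4 touched a protein-coding gene. These were block A, block D, a run on chromosome 8 from 85654451 to 85826724 with 16 peaks and a median background of 9.78, and a run on chromosome 18 from 46965967 to 47025542 with 6 peaks. Among the peaks analysed here, block A had the most of any run, 117, ahead of 108 on chromosome 21 from 7916099 to 8471931, where the median background was 21.4. Of 2082 KAS peaks with a background of at least 3 reads, 12.9% lay in blocks A to E.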
